A study of Mus musculus with 6 samples.

Results

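Cytosolic ribosomal protein genes encode the protein part of the ribosome that translates nuclear messages. They were taken here as all non-control probes whose array gene name is Rpl or Rps followed by a number, with an optional a, x, y or l, or is Rplp0, Rplp1, Rplp2 or Rpsa. The rule found 131 probes of 79 genes among 41174 probes and 19505 named genes on the array, and 78 of the 79 were bright enough to be tested, beside 15027 tested genes in all. Every one of the 78 gave a signal well above background on each of the 6 arrays. All 79 symbols were found in RefSeq, on 19 chromosomes. The array names some ribosomal protein genes differently, so Rpl34, Rpl39l, Rps4l and a second probe annotated to the Rplp0 transcript under its old name Arbp fell outside the rule.

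Expression was measured in RNA of whole mouse embryos at embryonic day 8.5 on Agilent arrays read in 1 colour. The 3 CKO samples were Brg1d/d embryos, conditional knockouts of Brg1, and the 3 control samples were Brg1fl/fl embryos, in which the floxed gene is intact and which the design calls wild type. Dams received tamoxifen, per the labels, and the treatment is listed for both genotypes. Brg1, gene symbol Smarca4, is an ATPase of the SWI/SNF chromatin remodelling complexes. The samples are called biological replicates. Neither the Cre driver nor whether each sample was 1 embryo or a pool is stated in the labels. The p-values below therefore measure the spread between these samples.

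The ribosome has a small subunit, which reads the message, and a large subunit, which joins amino acids, and most of its proteins are needed in about equal amounts. Many of these messages begin with a run of C and T that couples their translation to mTOR signalling. When ribosome assembly fails, free ribosomal proteins such as Rpl5 and Rpl11 bind Mdm2, the ligase that degrades p53, so that p53 is stabilised. Loss of a single copy of certain members causes Diamond-Blackfan anaemia in humans and coat, tail or skeletal defects in mice.

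The Smarca4 level checked the labels. Levels here are log2 intensities relative to the 75th percentile of the array. Smarca4 read 1.49, 2.65 and 2.0 in CKO 1, 2 and 3 and 5.28, 4.45 and 4.50 in the controls, a difference of -2.69 ± 0.36 (SE; limma adjusted p = 0.0114). The labels do not state the deleted stretch, so whether the probe lies in it is unknown. The 3 controls and CKO 2 were scanned on 1 day, while CKO 1 and CKO 3 had a day each. All controls lay on 1 slide and the CKO arrays on 3 separate others, so no slide held both genotypes. The brightest spike-in control read 12934 and 6905 units on CKO 1 and CKO 3, and 208550 to 241121 units on the other 4 arrays. Values within the day, given below beside the genotype differences, are CKO 2 minus the mean of the 3 controls. They rest on 1 CKO array, which is on another slide than the controls. All markers of heart muscle, yolk sac endoderm and primitive erythroid cells (8, 13 and 10 genes) were tested, as were 9 of 11 trophoblast and 6 of 7 decidua markers. Heart markers were called lower in CKO in 7 of 8 cases and trophoblast markers higher in 5 of 9, where 5.3% of all tested genes were lower and 5.24% higher. Of the decidua markers 3 were lower and 1 higher, of the erythroid markers 1 was lower, and no yolk sac marker was called by limma (0 at an unadjusted p under 0.05). The log2 of the summed level was 3.29 to 3.91 in CKO and 7.12 to 7.65 in control for heart, and 8.18 to 8.29 against 7.39 to 7.94 for trophoblast. For yolk sac it was 8.80 to 8.99 against 6.90 to 9.31, for erythroid markers 6.03 to 6.31 against 6.16 to 8.18, and for decidua 0.356 to 0.714 against 1.75 to 3.48. Control 1 set the low end of these control ranges. Controls 2 and 3 read 9.10 and 9.31 for yolk sac, 8.03 and 8.18 for erythroid markers, and 3.48 and 2.85 for decidua. The part of these cell types, and of control 1, in the results below was not tested.

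The printed probes are those that carry the Rpl31, Rpl11 and Rpl23 results and the stalk gene Rplp0. Probe positions come from the array design (build mm7) and were not compared with exons of that build. No part of a probe is singled out, so none is in capitals. The brighter and dimmer Rpl31 probes lie at chr1:39612807-39612866 and chr1:39613044-39613103 on the plus strand. The Rpl11 probe lies at chr4:135428407-135428729, and its span of 323 bases exceeds its 60 bases, so it crosses an intron. The Rpl23 probes lie at chr11:97886642-97886701 (dimmer) and chr11:97887360-97890374 (brighter, a span of 3015 bases). The Rplp0 probe, given as chr8:101459316-101459375, is on another chromosome than RefSeq's Rplp0, which is on chromosome 5. The Rpl11, Rpl23 and Rplp0 probes are on the minus strand. The first 30 bases are shown for the first 4 probes and all 60 for the others.
Rpl31 brighter probe: gggtgttggaaattaatctgagaatctctg
Rpl31 dimmer probe: cattttcagttccaggtttatgtgtgagcc
Rpl11 brighter probe: gttccagcagaagtacgatggaatcatcct
Rpl23 dimmer probe: acaaaacacgcattcttttcaggtctttgc
Rpl23 brighter probe: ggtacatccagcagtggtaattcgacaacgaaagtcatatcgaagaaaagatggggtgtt
Rplp0 probe: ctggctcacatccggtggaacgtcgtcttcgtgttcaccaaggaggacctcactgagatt

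Of the 78 genes, 1 passed the test, and it was lower in CKO: Rpl31, a large-subunit protein near the exit tunnel. That is 1.28% of members, against 10.5% of all tested genes (1585 of 15027, with 788 higher and 797 lower), and limma called no member higher. Most members are bright, and 74 were read at a low scanner gain on all 6 arrays. Of 721 other genes read so, 5 (0.693%) were called, so the share of members is not low beside genes as bright. At an unadjusted p under 0.05, 6 members (5 higher and 1 lower, 7.69%) were counted, against 32.5% of all genes. That count depended on the processing: it was 22 members with normexp background correction and 26 with an intensity trend, where 33.1% and 36.1% of all genes were counted. The median difference of the members was 0.22 on the log2 scale, against 0.07 for all genes, and 64 were above 0 and 14 below (82.1% above 0, against 55% of all genes). The members' median was 0.121 with median scaling, 0.133 with cyclic loess and -0.00327 with quantile scaling. Quantile scaling gives every array the same distribution of values. Most members are among the bright probes, so it can remove a shift that they share, whatever its source. On the arrays of 1 day the median was 0.01, with 43 above 0 and 35 below. In bulk RNA, fewer cells of a type and less RNA per cell cannot be told apart.

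Differences ran from -0.69 to 0.91, with quartiles of 0.0447 and 0.342, against -0.306 and 0.459 for all genes. Within the scan day shared with the controls, members ran from -0.61 to 0.44. The controls, on 1 slide and 1 day, varied little among themselves, with a median SD of 0.0791 over the members against 0.234 over all genes, whereas the CKO samples had a median SD of 0.186 against 0.197. The median SE of a member's difference was 0.164. The 95% interval lay within 2-fold in both directions for 68 members, and went beyond it for Rpl31, Rpl30, Rplp2, Rps20, Rps12, Rplp1, Rpl11, Rps4x, Rps27a and Rpl21. The 45 large-subunit members had a median of 0.25 (38 above 0) and the 31 small-subunit members a median of 0.18 (24 above 0). Within the day the medians were 0.0081 and 0.0215, and the difference between the subunits was not tested.

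**Figure D1:**
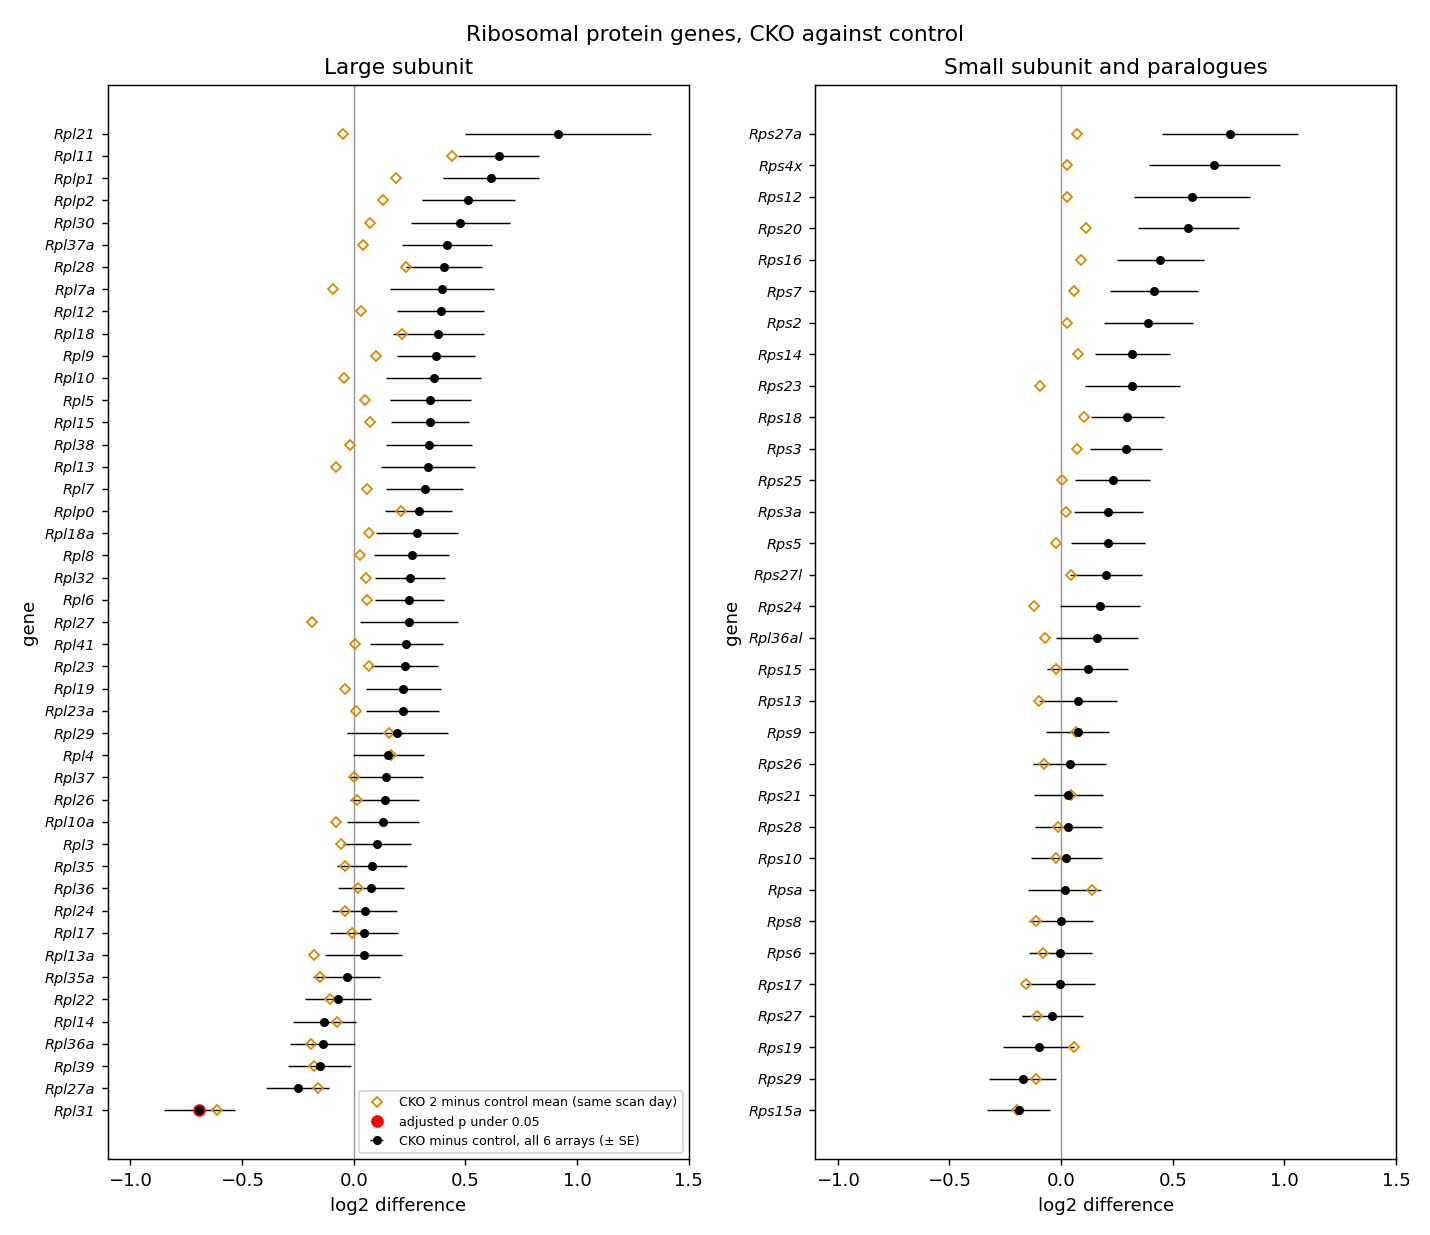
Log2 difference between CKO and control for the tested ribosomal protein genes reported here (black, all 6 arrays, ± SE) and between CKO 2 and the mean of the 3 controls, scanned on the same day (orange diamonds). Large-subunit genes are at left, small-subunit genes and the paralogues at right, and Rpl31 at -0.69, ringed in red, had an adjusted p under 0.05.

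The CKO arrays differed among themselves. The median member stood 0.351 above the mean of the controls on CKO 1, 0.0114 on CKO 2 and 0.293 on CKO 3, while the 3 control arrays lay at 0.00454, -0.041 and 0.0257. For all genes the values were 0.126, 0.00392 and 0.0669 on CKO 1, 2 and 3. Both CKO 1 and CKO 3 exceeded every control for 50 members (64.1%, against 34.5% of all genes). CKO 2 lay inside the control range for 40 members (51.3%, against 39.8%), and both held for 25 (32.1%, against 9.33%). The members' median on CKO 1 and CKO 3 was 0.0173 and -0.00586 under quantile scaling, and was 0.28 and 0.0418 under median scaling and 0.186 and 0.227 under cyclic loess. Scan day, spike-in level and the share of spots read at low scanner gain (5.13%, 3.03% and 4.72% on CKO 1, 2 and 3, and 3.11% to 3.17% on the controls) moved with CKO 1 and CKO 3. Their part in the members' shift was not tested.

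**Figure D2:**
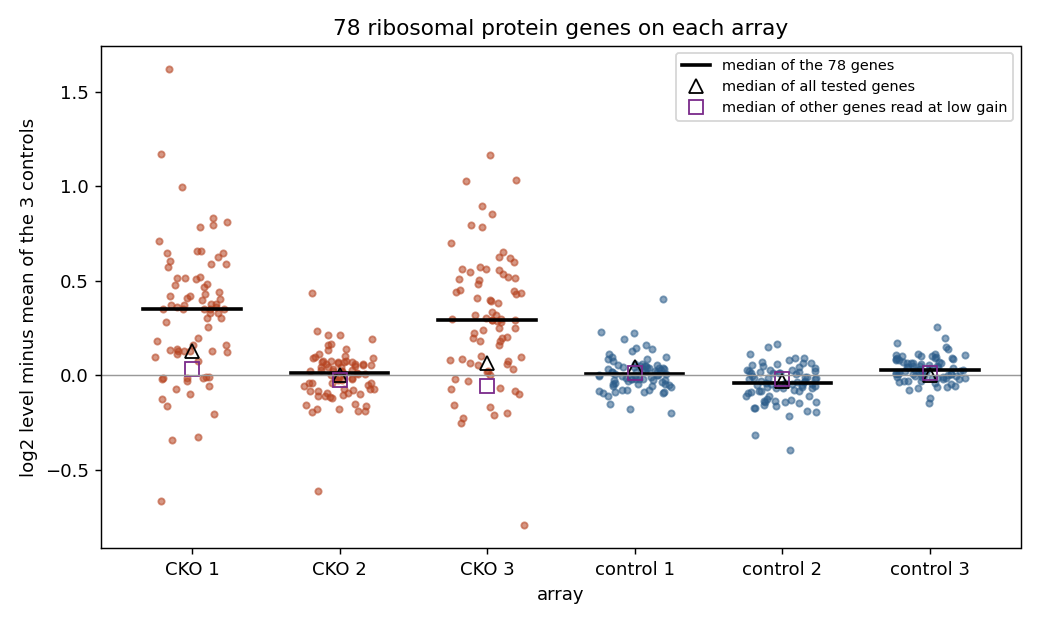
Each point is 1 of 78 ribosomal protein genes on 1 array, as its log2 level minus the mean of the 3 controls. The median member (bar) is near 0.35 and 0.29 on CKO 1 and CKO 3 and near 0.01 on CKO 2, with quantile scaling bringing CKO 1 and CKO 3 to 0.0173 and -0.00586, and the open marks give the median of all tested genes and of other genes read at low gain.

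Groups did not overlap for 23 members (29.5%, against 41.9% of all genes): 17 higher (21.8%, against 22.8%) and 6 lower in CKO (7.69%, against 19.1%). Those higher included Rpl23, Rpl6, Rpl32, Rplp0, Rps3, Rps18, Rpl9, Rps2, Rpl28, Rps7, Rpl37a, Rps16, Rplp2, Rps20, Rplp1 and Rpl11. The 6 lower were Rpl31, Rpl27a, Rps15a, Rps29, Rpl39 and Rpl14. Leaving out CKO 2, limma called 12 of the 78 members (15.4%), against 18.6% of all genes. Of the 12, 11 were higher (14.1% of members, against 12% of all genes). The 12 were Rpl31, Rpl37a, Rps16, Rpl7a, Rplp2, Rpl11, Rps20, Rplp1, Rps12, Rps4x, Rps27a and Rpl21, and their differences were -0.73 for Rpl31 and 0.60 to 1.40 for the others. Bright spots were read at a low scanner gain and scaled up, on all 6 arrays for 74 of the 78 members. The 721 other genes read so on all 6 arrays had a median difference of -0.0168, and 5 of them (0.693%) were called.

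Rpl31 was the only member called, and both of its probes were dim beside those of most members. Neither was read at low gain on any array, whereas 74 of the 78 members were read so on all 6. Which Rpl31 message each probe reads was not tested. The brighter probe read 2.77, 2.83 and 2.64 in CKO 1, 2 and 3 and 3.29, 3.60 and 3.42 in controls 1, 2 and 3. All CKO values lay below all control values, with CKO 2 the highest of its group. The difference was -0.69 ± 0.16 (SE; 95% interval -1.07 to -0.31), a 1.61-fold fall (limma adjusted p = 0.0449), and -0.61 on the day shared with the controls. The call was lost (adjusted p 0.0535 to 0.487) with slide, scan day, the spike-in split or replicate as a block, and with median scaling, no filter or the mean of the gene's probes. The difference was -0.79 with median scaling, -0.61 with scan day or the spike-in split and -0.41 for the mean of the probes, and stayed at -0.69 with slide, replicate or no filter. Leaving out CKO 1, CKO 3, control 2 or control 3 gave differences of -0.70, -0.64, -0.61 and -0.70 (limma adjusted p = 0.133, 0.17, 0.176 and 0.101). The dimmer Rpl31 probe read 2.03, 1.54 and 1.80 in CKO and 1.76, 1.91 and 2.06 in control. These overlap, and the difference was -0.12 ± 0.19 (adjusted p = 0.679).

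Rpl11, which with Rpl5 and the 5S rRNA binds Mdm2, had the highest difference on the shared scan day. It read 7.75, 7.48 and 7.84 in CKO and 7.27, 6.93 and 6.92 in control. The groups did not overlap, and control 1 was the highest control. The difference was 0.65 ± 0.18 (SE; 95% interval 0.21 to 1.08; 1.57-fold), with an adjusted p of 0.0731 by limma, and 0.44 within the day. The call was made under 4 of 19 alternatives (adjusted p 0.0272 to 0.0483), including without CKO 2 and without control 1. A second, dimmer Rpl11 probe differed by 0.19 ± 0.69 (limma adjusted p = 0.863). It read 0.13, 0.31 and 0.07 in CKO and 1.69, -0.83 and -0.92 in control. Control 1 lay above all CKO values there, and controls 2 and 3 lay below them.

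None of 9 listed genes whose proteins bind Mdm2, Rpl11 among them, passed through the probe used to read it, and 2 had an unadjusted p under 0.05 by limma, where 10.5% and 32.5% of all genes did so. Rpl5, partner of Rpl11, differed by 0.34 ± 0.18 (0.05 within the day), and Rpl26, which also aids p53 translation, by 0.14 ± 0.15 (0.01 within the day). Rps3, a small-subunit protein, differed by 0.29 ± 0.16 and Rps7 by 0.42 ± 0.20 (0.07 and 0.06 within the day). Rpl23 was read by 2 probes. The brighter one gave 7.27, 6.97 and 7.16 in CKO and 6.88, 6.96 and 6.87 in control, a difference of 0.23 ± 0.15 (adjusted p = 0.327). The dimmer one gave 3.86, 4.0 and 3.93 in CKO and 3.36, 3.19 and 3.29 in control, 0.65 ± 0.14 higher (limma adjusted p = 0.0416) and 0.72 within the day. CKO 2 was the highest CKO value on the dimmer probe, and the groups did not overlap on either. Rps27a, which encodes ubiquitin fused to a small-subunit protein, differed by 0.76 ± 0.30 with 0.07 within the day. Genes that respond to p53 were added with their values known. Mdm2 rose by 0.93 ± 0.16 (adjusted p = 0.0246) and Cdkn1a, a cell-cycle inhibitor, by 1.93 ± 0.19 (adjusted p = 0.00493). Trp53 itself differed by 0.03 ± 0.29. Within the day the 3 genes differed by 0.71, 1.61 and 0.29.

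**Figure D3:**
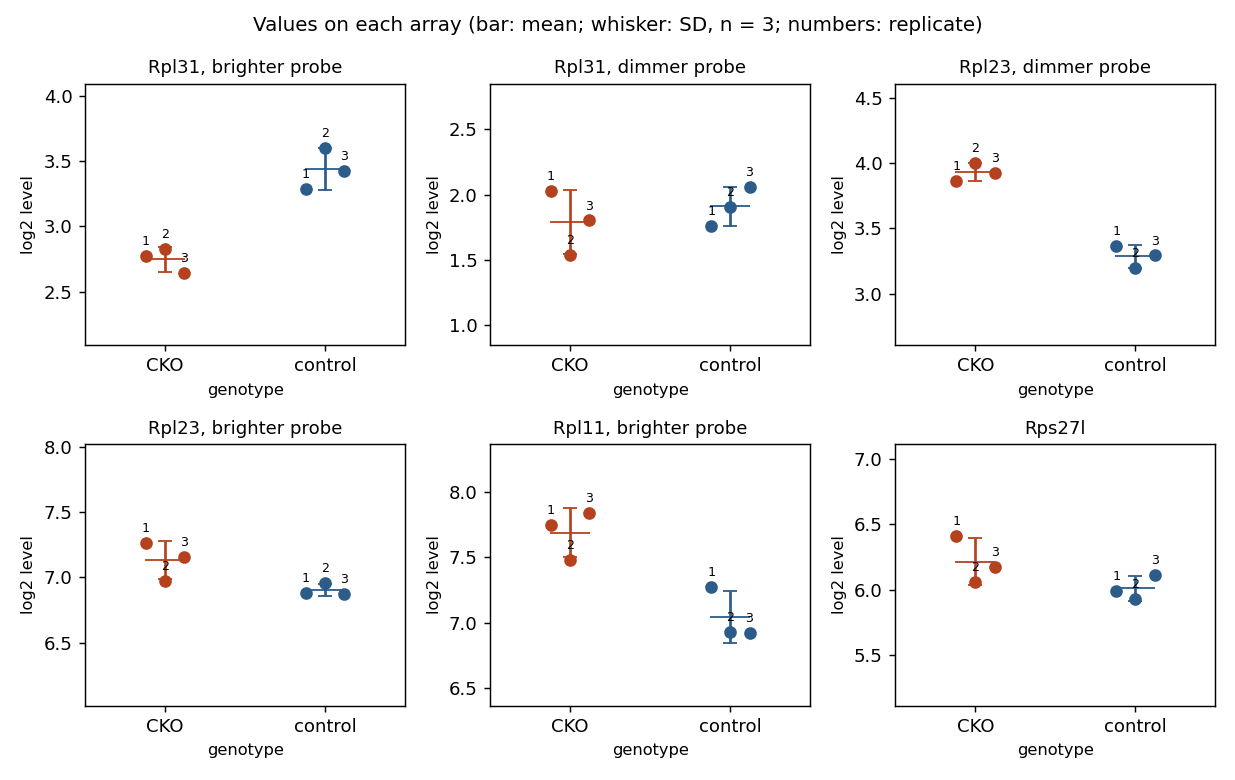
Log2 level on each array (dots, numbered by replicate), with the group mean (bar) and SD (whisker, n = 3), for both probes of Rpl31 and Rpl23, the brighter Rpl11 probe and Rps27l. The brighter Rpl31 probe is lower in all 3 CKO samples (2.64 to 2.83 against 3.29 to 3.60), while its dimmer probe overlaps between genotypes.

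Rps27 and Rps27l are paralogues, and Rps27l is a p53 target. Rps27l read 6.41, 6.06 and 6.17 in CKO and 5.99, 5.93 and 6.11 in control. CKO 2 lay inside the control range, so the groups overlap. The difference was 0.20 ± 0.16 (95% interval -0.19 to 0.59; adjusted p = 0.413), and 0.04 within the day. Rps27 differed by -0.04 ± 0.14 (-0.11 within the day). Rpl36al, a paralogue of Rpl36a, differed by 0.16 ± 0.18 and turned to -0.07 within the day. Rpl22l1, the paralogue of Rpl22, lies outside the rule and had a difference of -0.52 ± 0.15 (adjusted p = 0.0833), and -0.34 within the day.

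The stalk proteins Rplp0, Rplp1 and Rplp2 bind the translation GTPases to the large subunit, and limma called none of the 3 (2 had an unadjusted p under 0.05, as did 32.5% of all genes). Rplp1 read 8.47, 7.86 and 8.53 in CKO and 7.59, 7.69 and 7.74 in control. Rplp2 read 8.29, 7.63 and 8.12 against 7.42, 7.52 and 7.56, and Rplp0 read 5.84, 5.68 and 5.76 against 5.55, 5.33 and 5.53. All 3 had CKO values above all controls, as did 22.8% of all genes and 21.8% of members, and CKO 2 was the lowest CKO value in each. The differences were 0.61 ± 0.22, 0.51 ± 0.21 and 0.29 ± 0.15 (adjusted p = 0.115, 0.148 and 0.225), with 0.19, 0.13 and 0.21 within the day. The Rplp0 values rest on the probe that the array places on chromosome 8. The probe named Arbp, annotated to the same transcript and outside the rule, read 8.35, 7.47 and 8.27 in CKO and 7.44, 7.58 and 7.47 in control, so that CKO 2 lay inside the controls (-0.02 within the day).

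Members whose mutants show developmental defects in mice numbered 11 in a list, with a median difference of 0.05 and no call by limma (1 had an unadjusted p under 0.05, as did 32.5% of all genes). Their median within the day was 0.06. Rpl38, lost in the Tail-short skeletal mutant, read 7.63, 7.10 and 7.63 in CKO and 7.16, 7.05 and 7.14 in control. CKO 2 lay within the controls and the other CKO samples above them, and the difference was 0.34 ± 0.19 (-0.02 within the day). Rps20, whose missense mutation darkens skin in mice, differed by 0.57 ± 0.23 (0.11 within the day). A second, much dimmer Rps20 probe differed by -0.56 ± 0.20 (-0.58 within the day), and the mean of the gene's probes by 0.00495. Rps19, mutated in another dark-skin line and in Diamond-Blackfan anaemia, differed by -0.10 ± 0.16 (0.06 within the day, of opposite sign). Rpl24, lost in belly spot and tail mice, differed by 0.05 ± 0.14 (-0.04 within the day, also of opposite sign) and Rpl27a, mutated in the ataxic sooty foot line, by -0.25 ± 0.14 (-0.16 within the day). Rps14 differed by 0.32 ± 0.17, Rpl29 by 0.19 ± 0.23, Rpl22 by -0.07 ± 0.15 and Rpsa by 0.02 ± 0.16, against 0.07, 0.16, -0.11 and 0.14 within the day. Second, dimmer probes of Rpl22 and Rpsa differed by -0.41 ± 0.15 and -0.25 ± 0.14 (limma adjusted p = 0.119 and 0.255). Within the day they differed by -0.40 and -0.16. The dimmer Rpl29 probes differed by 0.11 to 0.51. Rps6, the substrate of S6 kinase, differed by -0.00337 ± 0.14 (-0.08 within the day). Of 16 tested genes on a list linked to Diamond-Blackfan anaemia, 1 was lower, Rpl31, where 5.3% of all genes were lower, and the median was 0.04 (-0.05 within the day).

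The largest differences that did not pass belong to Rpl21 (0.91 ± 0.42), Rps27a and Rps4x (0.69 ± 0.29). Rpl21 read 1.41, -0.26 and 0.96 in CKO and -0.08, -0.35 and -0.20 in control. Rps4x, the X-linked small-subunit gene, read 7.51, 6.54 and 7.55 against 6.44, 6.60 and 6.50. CKO 2 lay inside the control range for both, and the differences within the day were -0.05 and 0.03. The Rpl21 probe used is annotated to a predicted transcript, and 75% of its bases are G or C, against a median of 45% for the probes used. A second, dimmer Rpl21 probe differed by 0.37 ± 0.19 (0.25 within the day). At the low end of those that did not pass were Rpl27a, and the small-subunit genes Rps15a (-0.19 ± 0.14) and Rps29 (-0.17 ± 0.15). Their CKO values lay below all controls in each, as for 19.1% of all genes. Within the day the 3 differed by -0.16, -0.20 and -0.11. Rpl3l, the muscle paralogue of Rpl3, was left out of the test by the filter. It was well above background in CKO 1 and CKO 3 (30.6 and 32.3 units) and in none of the 3 controls. Its mean over the 3 CKO arrays was 1.59-fold above the lowest signal well above background on the controls. This is not a lower bound on the difference, because CKO 2 (6.56 units) was not well above background either. Without CKO 2 it entered the test through CKO 1 and CKO 3 alone, and it is not counted among the members called there.

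Some ribosomal proteins outside the rule were read for comparison. Fau, which encodes a small-subunit protein fused to a ubiquitin-like one, differed by 0.43, Rack1, a small-subunit scaffold, by 0.43, and Arbp by 0.53 (adjusted p 0.204 to 0.239). Within the day they differed by -0.04, -0.02 and -0.02. Rpl7l1, a paralogue of Rpl7, read 3.45, 3.06 and 3.16 in CKO and 2.32, 2.10 and 2.10 in control. The groups did not overlap, and it rose 2.07-fold (1.05 ± 0.17; adjusted p = 0.0198), with 0.88 within the day.

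Lists of the rest of the machinery were also read, where 5.24% of all genes were called higher and 5.3% lower. Ribosome biogenesis factors (71 tested) had a median of 0.08 and 1 gene higher, Pes1, needed for large-subunit rRNA processing (0.79 ± 0.17; adjusted p = 0.0365). Translation factors (40 tested) had a median of 0.06 and 1 gene lower, the RNA helicase Eif4a2 (-0.79 ± 0.17; adjusted p = 0.0379). Regulators of translation (19 tested, 8 of them above 0) had a median of -0.04, a mean of 0.17, and 3 genes higher. These were Akt1s1 (1.08 ± 0.18), Sesn2 (0.89 ± 0.21) and Tsc1 (0.67 ± 0.15), each known to restrain mTOR complex signalling (adjusted p = 0.0214, 0.0479 and 0.0449). Mitochondrial ribosome proteins (76 tested) had a median of 0.07 and 1 gene higher, Mrpl27 (0.89 ± 0.17; adjusted p = 0.0309). Within the day, on arrays that the calls also used, the called genes differed by 0.59, -0.99, 0.80, 1.21, 0.61 and 0.82 in the order named. The medians of the 4 lists there were 0.13, -0.00221, 0.01 and 0.00461.

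**Figure D4:**
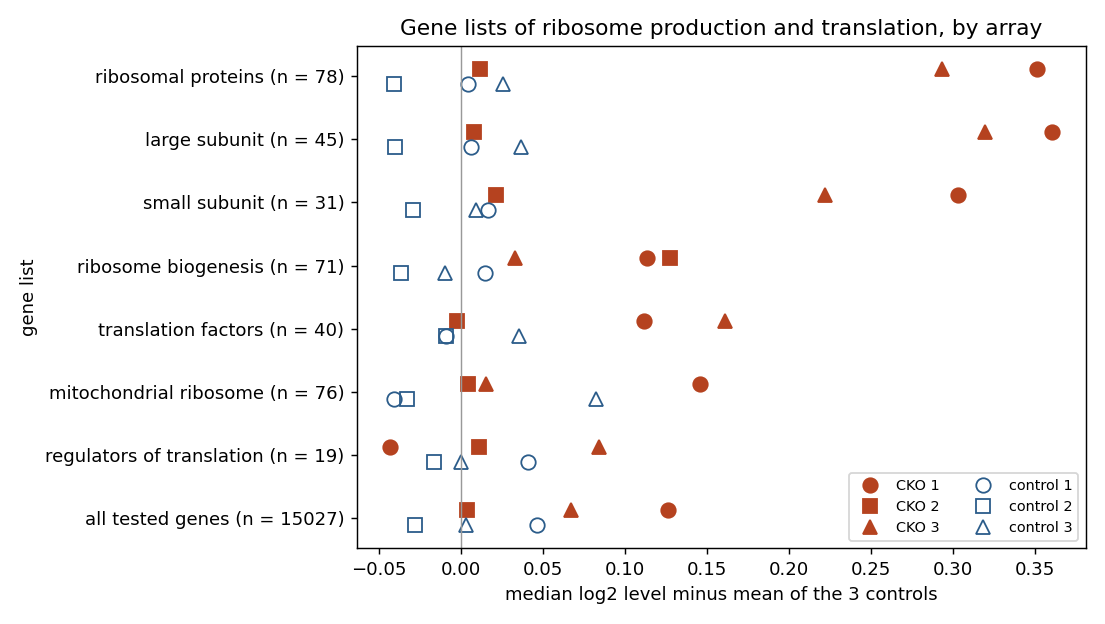
Median log2 level of each gene list on each array, minus the mean of the 3 controls, with CKO arrays filled and control arrays open. Ribosomal proteins reach 0.351 on CKO 1 and 0.293 on CKO 3 with 0.0114 on CKO 2 (0.0173, -0.00586 and -0.0179 under quantile scaling), against 0.113, 0.0331 and 0.128 for biogenesis factors on CKO 1, 3 and 2.

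Start windows were printed for 8 members to show runs of C and T near the listed start of the message, where there were any. The windows hold 20 bases before and 20 from the RefSeq start (GRCm38.p6), and capitals mark a run of at least 8 C or T overlapping the 10 bases on either side of the start. Of 59 members found in the promoter table, 27 held such a run at 1 or more of their listed starts (45.8%), against 15.8% of 27025 genes. A C at the start followed by 4 C or T was found in 13 members (22%, against 3.01% of genes). The tested members with a run had a median difference of 0.155, against 0.234 for the 31 tested members without one, and -0.0394 and 0.0254 within the day. The median of all members is near 0 under quantile scaling (-0.00327) and 0.121 under median scaling. A run is a description of the letters and not of a site. Rpl31 lies at chr1:39367831-39367870 (plus), Rps27 at chr3:90213629-90213668 (minus), Rps6 at chr4:86857348-86857387 (minus), Rpl38 at chr11:114668560-114668599 (plus), Rplp2 at chr7:141447631-141447670 (plus), Rps27l at chr9:66946066-66946105 (plus), Rpl11 at chr4:136053374-136053413 (minus) and Rpl5 at chr5:107900508-107900547 (plus). The last 2 held no run by this rule, and the C and T that open the Rpl5 window lie outside the 10 bases. The marked runs of Rpl31 and Rps27l end before the listed start, while the other marked runs printed here reach it. RefSeq lists 2 starts of Rps27l, and the one not printed, at chr9:66946393-66946432, held no run.
Rpl31: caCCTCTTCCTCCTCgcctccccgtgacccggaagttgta
Rps27: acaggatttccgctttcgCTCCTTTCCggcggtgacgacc
Rps6: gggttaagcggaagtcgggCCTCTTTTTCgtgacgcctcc
Rpl38: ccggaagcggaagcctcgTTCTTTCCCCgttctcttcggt
Rplp2: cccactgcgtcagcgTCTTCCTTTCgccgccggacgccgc
Rps27l: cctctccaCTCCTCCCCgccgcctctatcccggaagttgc
Rpl11: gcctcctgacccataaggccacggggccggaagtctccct
Rpl5: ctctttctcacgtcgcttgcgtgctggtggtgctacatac

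Probes of the same member did not always move alike. Of 37 members with 2 or more tested probes, 12 had probes with opposite signs, and the share over all genes was not computed. Of the 127 tested member probes 2 were called, where 10.5% of all genes, each read through 1 probe, were called. The 49 probes not used to read a member had a median of 0.13, from -1.05 to 1.44. A second Rps12 probe differed by -1.03 (adjusted p = 0.0519) where the read probe gave 0.58, and a second Rps13 probe by 1.18 (adjusted p = 0.0634) where the read probe gave 0.08. These 2 genes were chosen after their values were seen. Read probes spanning more than 62 bases (29) had a median of 0.195, and the 48 others 0.234.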

How the data were processed

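Per the labels' protocols, a Qiagen kit gave the RNA, of which 250 ng went into Cy3 labelling. The authors deposited scanner files of Agilent Feature Extraction 9.5, per the submitters' processing notes. The deposited columns used hold background-subtracted intensity, raw mean intensity and the local background. Other deposited columns, of unit other, hold flags of 0 or 1 for detection, saturation, outliers and low gain. The deposited series table equals the processed intensity, to a relative difference of 1e-4, for 100% of spots.

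Control and outlier spots were left out, spots of a probe were averaged, and log2 intensity minus that of the array's 75th percentile over non-control spots was used (percentiles 1627, 970.4 and 1582 units on CKO, 1000.1, 1010.0 and 957.5 on control). A probe was kept where at least 1 genotype had it well above background on its 3 arrays. The genotypes were compared in R 4.3.3 with limma 3.58.1 (lmFit, eBayes, two-sided), adjusted by Benjamini-Hochberg over 27854 probes at a threshold of 0.05. A gene was read through its kept probe with the highest mean. Genes were named by accession, symbol or synonym through RefSeq (GRCm38.p6), with probe positions in mm7. The members named were all that passed, the 3 largest differences in each direction among the others, those lost to the filter, and the lists of stalk proteins, Mdm2 binders, mouse mutants and paralogues. Other lists gave up to 4 members that passed, and any other gene named was chosen with its values known. Some results are not reported by name here. Members and lists were chosen with earlier results of these data known. Replicate numbers were not taken as a pairing in the reported fit. The deviations of same-numbered arrays correlated at -0.127, 0.0807 and 0.0910, and those of differently numbered arrays at -0.19 to 0.108. With 3 arrays per genotype these values cannot decide whether samples were paired. On simulated data with 27854 probes the fit recovered 19.7%, 73.9% and 92.9% of log2 changes of 1, 2 and 4, with 8 false among 136 calls. Changes were given to 61, 69 and 70 probes. The noise was normal and independent, with observed spreads shuffled over probes and no slide, scan-day or spike-in effect. These rates therefore do not give the error rate on the real arrays. The alternatives were other scalings, background correction, filters, thresholds, the series table, an intensity trend, slide, scan day, replicate and the spike-in split (CKO 1 and CKO 3 against the other 4 arrays, by spike-in brightness, stated as a batch by no label) as blocks, the mean of a gene's probes, the arrays of 1 scan day alone, and each array left out. Python 3.11.15 and matplotlib 3.10.9 were used. The number of arrays limits the precision.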

Additional observations from a re-analysis of the deposited data

How the results depend on the processing

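The count of called ribosomal protein genes was 1. It was 0 with median scaling, no filter, slide as a random block, scan day, the spike-in split or replicate block, the mean of the probes, at least 2-fold, or an adjusted p under 0.01, and 2 with normexp or an intensity trend with robust eBayes. At an unadjusted p under 0.05, limma counted 6 members in the reported fit, 3 with median scaling and 4 with no filter or the replicate block. The shares of all genes so counted were 32.5%, 30.1%, 25.6% and 29.3%, in that order. Members numbered 6 with slide, 10 with the mean of the probes, 22 with normexp and 26 with the intensity trend. The shares of all genes there were 30.8%, 32.7%, 33.1% and 36.1%. Leaving out 1 array gave 0 to 13 called members, the 13 (Rpl3l included, which then passes the filter) without CKO 2, and 305 to 2907 called genes of all (main count 1585). All genes called numbered 695 with no filter, 0 with scan day (1796 at an unadjusted p under 0.05), 122 with the spike-in split, 562 with the replicate block and 263 at an adjusted p under 0.01. The cause of these shifts was not tested, but the fits with scan day or the spike-in split compare CKO 2 alone with the controls. The members' median of 0.22 was -0.00327 under quantile scaling, 0.121 with median scaling and 0.133 with cyclic loess. It was 0.0114 with scan day, the spike-in split or the arrays of 1 day, and 0.156 to 0.323 with 1 array left out. With median scaling 610 genes were higher and 912 lower, against 788 and 797. Rpl31 passed in 8 of 19 tested alternatives. These include the deposited series table, which holds the same intensities and could only repeat the call. The precision of these 6 arrays, and signal over background, limit all values.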

Other observations

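Imp4, a factor of small-subunit rRNA processing, was chosen after its values were seen. It read -0.40, -0.99 and -0.74 in CKO, -2.17 in control 1, and -8.53 and -9.16 in controls 2 and 3, where the probe was not well above background. Its difference did not pass the test (limma adjusted p = 0.0822).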
